A study of Homo sapiens with 12 samples.

Results

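The genes described here are 59 protein-coding genes of the long arm of human chromosome 1, from LAMB3 at 1q32 to AHCTF1 at 1q44, which lie beyond MAPKAPK2 towards the end of the chromosome. They were taken by symbol from a list selected on lower RNA levels in MAPKAPK2-knockout than in wild-type cells, measured in these same libraries, out of 56609 symbols in the count table. Of the 59, 58 were expressed highly enough to be tested, among 21698 tested genes in all. The list does not hold every gene of the region: 299 tested genes lie beyond MAPKAPK2, and 241 of them are not listed.

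The cells were A375, an established human line of malignant melanoma from skin. Total RNA depleted of ribosomal RNA was sequenced from 12 libraries in 4 groups of 3: wild-type cells in DMSO, cells with MAPKAPK2 knocked out by CRISPR/Cas9 in DMSO, and the same 2 genotypes in 500 nM JQ1, each for 48 h. The series asked how loss of MAPKAPK2, which encodes the stress-activated kinase MK2, raises resistance to BET bromodomain inhibitors, the drug class of JQ1, which displaces BET proteins from acetylated chromatin. The labels do not say whether the knockout cells are 1 clone or a mixed population, or whether replicates are separate cultures, so the spread given below is that between libraries and may be technical.

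Genes that sit side by side on a chromosome need not share a function. The 59 listed genes include cell division genes, subunits of transcription and ribosome assembly complexes, kinases and phosphatases, Golgi proteins, and mitochondrial and lipid enzymes. What they have in common is a place on one chromosome arm, so position and role can be read as separate descriptions of each gene. Here only RNA was measured, and a lower level in every cell cannot be told apart from loss of the RNA in part of the cells.

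The members with the largest and the smallest knockout differences are shown by their promoters, because those genes mark the ends of the range described below. The sequences come from RefSeq on GRCh38.p14 and run from 250 bases before to 50 bases after the annotated start, read 5′ to 3′ on the gene's strand, with every GC box (GGGCGG on either strand) in capitals. LAMB3 (chr1:209652376-209652675, minus strand) and RCOR3 (chr1:211259116-211259415, plus strand) differed most between the genotypes. GALNT2 (chr1:230066988-230067287, plus strand) and DEGS1 (chr1:224182990-224183289, plus strand) differed least.
LAMB3: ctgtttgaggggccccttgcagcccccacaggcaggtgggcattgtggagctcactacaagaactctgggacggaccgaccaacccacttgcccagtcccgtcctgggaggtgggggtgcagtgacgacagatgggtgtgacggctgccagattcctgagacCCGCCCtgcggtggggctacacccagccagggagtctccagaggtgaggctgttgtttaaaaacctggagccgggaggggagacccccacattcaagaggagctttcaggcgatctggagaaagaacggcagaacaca
RCOR3: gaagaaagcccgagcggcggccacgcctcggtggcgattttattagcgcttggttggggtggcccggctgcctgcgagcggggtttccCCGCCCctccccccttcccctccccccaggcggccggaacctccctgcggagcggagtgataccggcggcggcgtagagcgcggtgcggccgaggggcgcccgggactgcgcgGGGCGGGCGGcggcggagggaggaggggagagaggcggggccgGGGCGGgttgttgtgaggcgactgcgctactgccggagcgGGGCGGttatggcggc
GALNT2: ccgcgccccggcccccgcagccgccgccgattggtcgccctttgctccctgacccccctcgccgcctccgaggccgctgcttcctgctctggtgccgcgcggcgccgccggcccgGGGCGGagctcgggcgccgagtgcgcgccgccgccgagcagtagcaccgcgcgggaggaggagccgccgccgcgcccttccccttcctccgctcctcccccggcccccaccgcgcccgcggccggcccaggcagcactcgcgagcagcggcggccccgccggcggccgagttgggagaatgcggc
DEGS1: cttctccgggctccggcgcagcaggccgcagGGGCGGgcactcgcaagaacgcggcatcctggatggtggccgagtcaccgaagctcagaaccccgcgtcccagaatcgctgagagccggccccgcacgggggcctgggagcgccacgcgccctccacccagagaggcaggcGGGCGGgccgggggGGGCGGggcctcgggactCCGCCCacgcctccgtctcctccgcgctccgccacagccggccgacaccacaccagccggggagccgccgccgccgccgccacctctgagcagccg
The LAMB3 promoter holds 10 CpG dinucleotides and 1 GC box, and the RCOR3 promoter 40 CpG and 5 GC boxes. GALNT2 has 51 CpG with 1 GC box, and DEGS1 39 CpG with 4 GC boxes. RefSeq promoters were found for 55 of the 59 members, all but BPNT1, MARK1, URB2 and AHCTF1. Their median was 28 CpG and 65% GC, against 14 CpG and 58.7% GC over all 35116 promoters in the table. A GC box was present in 69.1% of the member promoters and in 45% of all promoters. The full set was not limited to protein-coding or expressed genes, or to a single entry per gene, as the members were. These contrasts are therefore not matched and do not show a trait particular to the members. The other motifs searched on both strands were rare among members: TATAAA in 5.45% (11.5% of all promoters), CACGTG in 12.7% (7.26%) and TGANTCA in 3.64% (7.71%). Across the 54 tested members with a promoter entry, the rank correlation of CpG count with the average knockout difference was 0.35, a description over genes that share the same libraries.

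Libraries held 25316899 to 34594295 estimated counts. MAPKAPK2 itself, the targeted gene, was read at 88.8, 87.9 and 92.1 CPM (counts per 1000000 of the scaled library) in wild-type DMSO libraries and at 11.1, 13.2 and 13.0 CPM in knockout DMSO libraries. In JQ1 it was at 119, 120 and 112 CPM in wild type and 14.9, 12.6 and 15.7 CPM in knockout, so the genotype labels match the target's RNA in all 12 libraries. Of the melanocyte lineage markers, SOX10 (389 to 687 CPM), MITF (25.6 to 44.1 CPM) and S100B (27.8 to 49.1 CPM) were present in every library, while the pigment genes PMEL, MLANA, TYR and DCT were at or below 1.45 CPM. Of the neural crest markers, AXL was at 179 to 500 CPM, NGFR at 1.28 to 9.14 CPM and SOX9 at or below 0.965 CPM. The immune markers PTPRC and CD3E stayed at or below 0.283 CPM, and the endothelial markers PECAM1 and CDH5 at or below 1.29 CPM. Of the keratinocyte genes, KRT5 was at 0 in 10 libraries, while KRT14 was at 0 in 1 library and reached 2.09 CPM.

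Every tested member had a lower fitted level in knockout than in wild-type cells in DMSO, and 57 of 58 did in JQ1. The median log2 fold change was −0.39 in DMSO, or 76.5% of the wild-type level, and −0.46 in JQ1, or 72.8%. The middle of the range, between the lower and upper quartiles, was −0.47 to −0.29 in DMSO, and in JQ1 it was −0.56 to −0.36. Since the list was chosen for these differences, the values describe the members and are not a test. By edgeR's quasi-likelihood test at an adjusted p of 0.05, 46 members were called lower in DMSO, where 4.44% of all tested genes were, and 51 in JQ1, where 5.56% were. None was called higher, against 3.47% of all genes in DMSO and 3.01% in JQ1. In 55 members all 3 knockout DMSO libraries lay below all 3 wild-type DMSO libraries, which was so for 14.7% of tested genes. In JQ1 the groups were apart in this way for 53 members, against 12.4% of tested genes, and 51 were apart in both treatments.

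**Figure D1:**
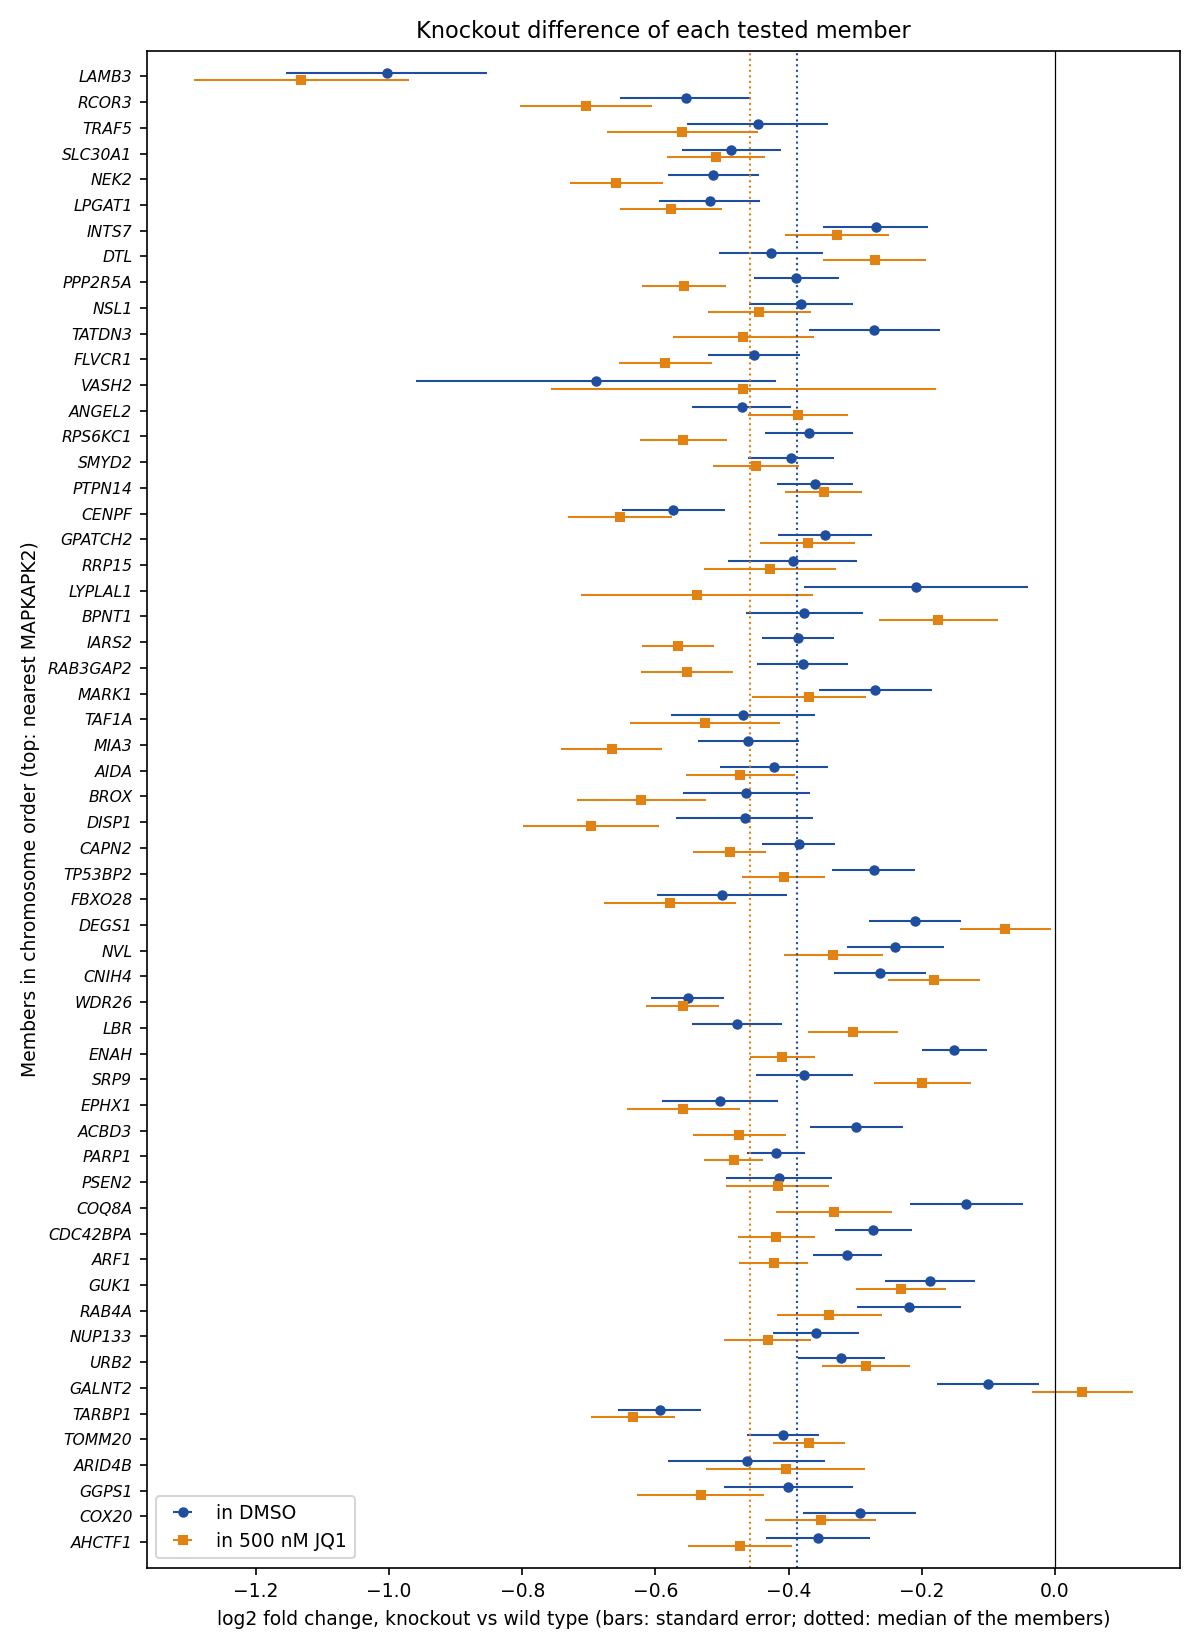
Log2 fold change of knockout against wild type (x axis) for the 58 tested members in chromosome order (y axis), in DMSO (circles) and in 500 nM JQ1 (squares), with standard errors as bars and the member medians of −0.39 and −0.46 as dotted lines. LAMB3 at the top lies far to the left in both treatments, and GALNT2 is the member nearest 0.

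Calls overlapped between treatments: 43 members were called in both, 3 in DMSO only, 8 in JQ1 only and 4 in neither (VASH2, LYPLAL1, DEGS1 and GALNT2). The 3 called in DMSO only were BPNT1, CNIH4 and SRP9. The 8 called in JQ1 only were INTS7, TATDN3, MARK1, NVL, ENAH, COQ8A, GUK1 and RAB4A, whose DMSO values were −0.27, −0.27, −0.27, −0.24, −0.15, −0.13, −0.19 and −0.22 in that order. Crossing the threshold in 1 treatment does not show a difference between treatments, which is tested further on. Across the 58 members the knockout differences in DMSO and in JQ1, which share no library, had a Pearson r of 0.74 and a Spearman rank correlation of 0.67. Without LAMB3 the r was 0.64. For the 56 members of at least 5 CPM the values were 0.67 and 0.66, beside 0.67 and 0.55 over all 11251 tested genes at that level.

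The spread of the differences among members, which their selection on this difference narrows, can be set beside the measurement error and beside unlisted genes of the region. Across members the standard deviation of the log2 fold change was 0.145 in DMSO and 0.177 in JQ1, and the median standard error of a gene's value was 0.0750 and 0.0755. Without LAMB3 these standard deviations were 0.121 and 0.153. For the 56 members of at least 5 CPM they were 0.115 and 0.154, and for the 96 unlisted genes beyond MAPKAPK2 at that level 0.269 and 0.321. Over all 241 unlisted genes there they were 0.447 and 0.6005. Removing the mean squared standard error left a spread between genes of 0.115 in DMSO and 0.152 in JQ1. In DMSO 47 of 58 members lay within 2 standard errors of the member median, and in JQ1 42 did. Averaged over the treatments, 55 members fell between −0.7 and −0.2, with LAMB3 alone below and GALNT2 and DEGS1 above.

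Neither expression level nor gene length ordered the members. Mean wild-type levels ran from 2.80 CPM for VASH2, which encodes a tubulin carboxypeptidase, to 800 CPM for CENPF, and their rank correlation with the average difference was 0.13. Gene lengths ran from 7.17 to 329 kb, with a rank correlation of 0.01. The 32 members on the plus strand and the 26 on the minus strand had median average differences of −0.42 and −0.41. All 4 values are descriptions across genes of the same libraries.

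LAMB3 stood furthest from the rest. It encodes the beta 3 chain of laminin-332, a basement membrane protein, and lies at chr1:209614870-209652466, nearest to MAPKAPK2 of the members. Its levels were 5.54, 5.81 and 6.21 CPM in wild-type DMSO and 2.63, 3.57 and 2.56 CPM in knockout DMSO libraries. In JQ1 they were 5.02, 4.19 and 4.20 CPM in wild type and 1.75, 2.07 and 2.28 CPM in knockout, so no knockout library reached any wild-type library. The log2 fold changes were −1.003 (SE 0.151) and −1.13 (SE 0.161), and the knockout mean was 49.9% ± 9.63 of the wild-type mean in DMSO (SD, n = 3).

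RCOR3 and TARBP1 came next. RCOR3, a corepressor that works with the histone demethylase KDM1A, was read at 28.5, 26.8 and 24.4 CPM in wild-type DMSO and 17.3, 18.7 and 18.2 CPM in knockout DMSO libraries. Under JQ1 the values were 24.2, 24.2 and 29.996 CPM in wild type and 16.3, 17.4 and 14.6 CPM in knockout. The genotypes were apart in both treatments, with log2 fold changes of −0.55 and −0.70. TARBP1, an RNA methyltransferase gene 27.7 Mb from MAPKAPK2, was at 46.2, 49.4 and 45.3 CPM in wild-type DMSO and 30.3, 31.2 and 31.8 CPM in knockout DMSO libraries. Its JQ1 values were 52.6, 53.6 and 52.5 CPM in wild type and 35.4, 35.2 and 31.8 CPM in knockout. The knockout mean of TARBP1 was 66.2% ± 1.58 of wild type in DMSO (SD, n = 3), with no overlap in either treatment. A large difference was therefore not limited to the members nearest MAPKAPK2.

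GALNT2 came closest to escaping. It encodes a Golgi enzyme that starts mucin-type O-glycosylation. Its levels in DMSO were 449, 458 and 468 CPM in wild type and 403, 429 and 451 CPM in knockout, where the highest knockout library passed the lowest wild-type library. In JQ1 they were 715, 707 and 643 CPM in wild type and 658, 656 and 810 CPM in knockout, with 810 CPM, the highest of all 12, in knockout JQ1 replicate 3. The log2 fold changes were −0.10 (SE 0.0761) and 0.04 (SE 0.0759). Without that library the JQ1 value was −0.0675, and without wild-type JQ1 replicate 3 it was −0.0064, so its sign depends on single libraries. The member before it did not share this: URB2, 0.432 Mb nearer to MAPKAPK2, was at −0.32 and −0.28.

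DEGS1, the dihydroceramide desaturase of sphingolipid synthesis, was at 52.5, 48.9 and 51.8 CPM in wild-type DMSO and 43.5, 42.6 and 46.4 CPM in knockout DMSO libraries, which did not overlap. With JQ1 the levels were 62.9, 59.9 and 65.3 CPM in wild type and 64.7, 58.8 and 55.2 CPM in knockout, which did. Its log2 fold changes were −0.21 (SE 0.0689) and −0.07 (SE 0.0683). The neighbouring member FBXO28, 0.0617 Mb nearer to MAPKAPK2, was at −0.50 and −0.58, and NVL, 0.0516 Mb further out, at −0.24 and −0.33. GUK1, the guanylate kinase that turns GMP into GDP, had the next smallest average difference. It was at 80.9, 77.0 and 83.9 CPM in wild-type DMSO and 71.9, 71.7 and 68.7 CPM in knockout DMSO libraries. In JQ1 GUK1 was at 115, 120 and 107 CPM in wild type and 95.1, 90.4 and 106 CPM in knockout, so the groups were apart in both treatments although the difference was small (−0.19 and −0.23).

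Counts called lower are given by role from here on. Over all tested members the share called was 79.3% in DMSO and 87.9% in JQ1, against 4.44% and 5.56% of all tested genes. Since the members were chosen on this difference, the counts describe each group and are not a result about its role. All 8 members that act in mitosis, DNA replication, genome maintenance or the nuclear envelope were called lower in both treatments, with medians of −0.42 in DMSO and −0.46 in JQ1. CENPF, a kinetochore protein that rises in G2 and mitosis, was the most abundant member. It was read at 888, 885 and 842 CPM in wild-type DMSO and 652, 561 and 543 CPM in knockout DMSO libraries. Its JQ1 levels were 710, 723 and 754 CPM in wild type and 494, 489 and 407 CPM in knockout, below every wild-type library, and the log2 fold changes were −0.57 and −0.65. NEK2, a centrosome kinase, was at −0.51 and −0.66, and the Mis12-complex subunit NSL1 at −0.38 and −0.44. DTL, which targets replication factors for degradation through CUL4 ligases, was at −0.43 and −0.27. PARP1, the DNA damage sensor, was at −0.42 and −0.48, with 369, 363 and 362 CPM in wild-type DMSO against 268, 272 and 279 CPM in knockout. Of the nuclear pore and nuclear lamina members, NUP133 was at −0.36 and −0.43, AHCTF1 at −0.36 and −0.47, and the lamin B receptor LBR at −0.48 and −0.30.

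Of the 12 members that act in transcription, RNA processing or ribosome assembly, 10 were called lower in DMSO and 11 in JQ1, with medians of −0.40 and −0.39. Beside RCOR3 and TARBP1 they comprise INTS7 of the Integrator complex, TAF1A of the RNA polymerase I factor SL1, SMYD2, a lysine methyltransferase, and ARID4B, a subunit of SIN3 corepressor complexes. TAF1A was at −0.47 and −0.53, SMYD2 at −0.40 and −0.45, and ARID4B at −0.46 and −0.40. The ribosome assembly genes RRP15 (−0.39 and −0.43), NVL (−0.24 and −0.33) and URB2 (−0.32 and −0.28) also sat near the middle of the range or above it. SRP9, a subunit of the signal recognition particle, was at −0.38 in DMSO and −0.20 in JQ1. ANGEL2 was at −0.47 and −0.39, and GPATCH2 at −0.35 and −0.37.

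Signalling and regulatory genes made up 14 members, of which 13 were tested. In DMSO 11 were called lower and in JQ1 12, with medians of −0.41 and −0.47. WDR26, a subunit of the CTLH ubiquitin ligase, had the smallest standard error of this group in DMSO (0.0551): 148, 149 and 144 CPM in wild-type DMSO against 106, 95.6 and 99.0 CPM in knockout. Its JQ1 libraries were at 168, 155 and 168 CPM in wild type and 112, 112 and 109 CPM in knockout, and the log2 fold changes were −0.55 and −0.56. PPP2R5A, a regulatory subunit of protein phosphatase 2A, was at −0.39 and −0.56, and the tyrosine phosphatase PTPN14 at −0.36 and −0.35. The kinases RPS6KC1, CDC42BPA and MARK1 were at −0.37 and −0.56, −0.27 and −0.42, and −0.27 and −0.37. TRAF5, an adaptor of tumour necrosis factor receptors, was at −0.45 and −0.56, and TP53BP2, which binds p53, at −0.27 and −0.41. DISP1, which releases Hedgehog ligands, was at −0.47 and −0.70, AIDA at −0.42 and −0.47, FBXO28 at −0.50 and −0.58, and PSEN2, a catalytic subunit of gamma-secretase, at −0.41 and −0.42. VASH2 was at −0.69 and −0.47, but its standard errors of 0.270 and 0.289 were the largest of the tested members. TGFB2, the ligand transforming growth factor beta 2, had between 2.12 and 21.0 estimated counts per library and was too low to test.

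Among 8 members of the membrane traffic group, 6 were called lower in each treatment, with medians of −0.30 and −0.45. ARF1, the Golgi GTPase that recruits vesicle coats, was at 320, 325 and 328 CPM in wild-type DMSO and 252, 266 and 265 CPM in knockout DMSO libraries. In JQ1 ARF1 was at 407, 417 and 371 CPM in wild type and 300, 291 and 300 CPM in knockout, with the genotypes apart both times (log2 fold changes −0.31 and −0.42). MIA3, which loads collagen into transport vesicles, was at −0.46 and −0.67. RAB3GAP2 was at −0.38 and −0.55, the Golgi protein ACBD3 at −0.30 and −0.47, and BROX at −0.46 and −0.62. CNIH4, a cargo receptor of the endoplasmic reticulum, was at −0.26 and −0.18, and the endosomal GTPase RAB4A at −0.22 and −0.34.

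The 13 members of metabolism, transport and mitochondria had 9 called lower in DMSO and 10 in JQ1, with medians of −0.39 and −0.51. TOMM20, the import receptor of the outer mitochondrial membrane, was at 476, 470 and 475 CPM in wild-type DMSO and 369, 356 and 346 CPM in knockout. JQ1 libraries held 399, 428 and 427 CPM in wild type and 345, 322 and 305 CPM in knockout, again without overlap (log2 fold changes −0.41 and −0.37). Of the other mitochondrial genes, IARS2, the isoleucyl-tRNA synthetase, was at −0.39 and −0.57, COX20, an assembly factor of cytochrome c oxidase, at −0.29 and −0.35, and COQ8A, of coenzyme Q synthesis, at −0.13 and −0.33. The transporters SLC30A1 for zinc and FLVCR1 were at −0.49 and −0.51, and at −0.45 and −0.59. The enzymes LPGAT1, EPHX1 and GGPS1 were at −0.52 and −0.58, −0.50 and −0.56, and −0.40 and −0.53. BPNT1, a nucleotide phosphatase, was at −0.38 in DMSO and −0.18 in JQ1. LYPLAL1, a lysophospholipase-like protein, was read at 6.80, 7.40 and 6.76 CPM in wild-type DMSO and 5.58, 5.22 and 7.34 CPM in knockout, which overlap, at −0.21 and −0.54.

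The 4 remaining members were LAMB3, ENAH, CAPN2 and TATDN3, of which 2 were called lower in DMSO and 4 in JQ1 (medians −0.33 and −0.48). CAPN2, a calcium-dependent protease, was at −0.38 and −0.49. ENAH, an actin regulator of the Ena/VASP family, was at 282, 279 and 278 CPM in wild-type DMSO and 258, 255 and 242 CPM in knockout DMSO libraries. Its JQ1 libraries read 369, 370 and 361 CPM in wild type and 272, 291 and 266 CPM in knockout. The groups were apart in both treatments, and the gap between them was wider in JQ1 (−0.41) than in DMSO (−0.15). TATDN3, a TatD-family nuclease, was at −0.27 and −0.47.

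Library by library, the lower level was present in each of the 6 knockout libraries. The median member stood at 78.0%, 74.3% and 76.3% of its wild-type mean in the 3 knockout DMSO libraries. In the 3 knockout JQ1 libraries it stood at 76.0%, 75.1% and 69.1%. The 6 wild-type libraries lay between 99.0% and 102%, so no knockout library came near a wild-type one. The number of members below all wild-type libraries of their treatment was 58, 58 and 55 in the knockout DMSO libraries and 54, 56 and 56 in the knockout JQ1 libraries. Summed over all 59 listed members, with the untested TGFB2, the level was 6968 ± 38.9 CPM in wild-type DMSO and 5376 ± 159 CPM in knockout DMSO (SD, n = 3). In JQ1 the sums were 7278 ± 45.1 and 5519 ± 153 CPM (SD, n = 3), so the knockout sums were 77.2% and 75.8% of wild type.

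**Figure D2:**
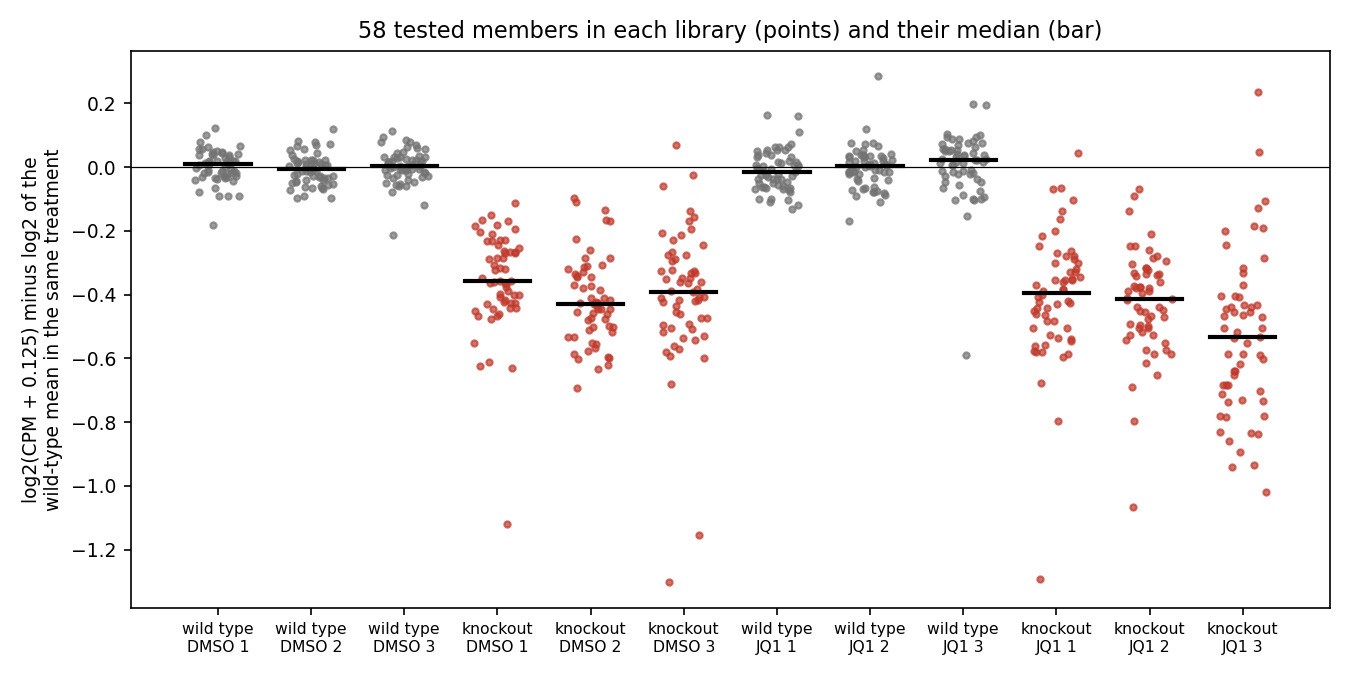
Log2 ratio of each tested member (points) to its wild-type mean in the same treatment (y axis, on the log2 CPM scale) in each of the 12 libraries (x axis), with the median as a bar. The 6 knockout medians lie between −0.36 and −0.53 and the 6 wild-type medians near 0, and the points of knockout JQ1 replicate 3 are the most spread.

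Knockout JQ1 replicate 3 stood apart from the other knockout JQ1 libraries. Its members had a median log2 ratio of −0.53 with quartiles at −0.71 and −0.41, while the other two had medians of −0.40 and −0.41. The 272 tested genes in a span of equal length on the near side of MAPKAPK2 were also lower in it, at a median of −0.12, against 0.01 and −0.03 in the other two. Its part in the member values was not tested beyond leaving it out. Without it the median member difference in JQ1 was −0.40, close to the −0.39 of DMSO, and 50 members were called lower.

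The window medians lay near 0 before MAPKAPK2 and were negative in each window beyond it. Where along the arm the drop begins was not tested. The last window also held genes near 0 towards the end of the arm, given further on. Among genes of at least 5 CPM, listed or not, the median log2 fold change in the last 10 Mb before MAPKAPK2 was −0.01 in DMSO and −0.05 in JQ1 (54 genes). Of those 54, 8 were called lower in each treatment, where 4.78% (DMSO) and 6.87% (JQ1) of all tested genes of at least 5 CPM were. The lower quartiles of the 54 were −0.18 and −0.24, so some genes before MAPKAPK2 were lower too. In the first 10 Mb beyond MAPKAPK2 the medians were −0.45 and −0.51 (31 genes, of which 25 and 27 were called lower). They were −0.38 and −0.45 from 10 to 20 Mb (35 genes), −0.39 and −0.41 from 20 to 30 Mb (54 genes), and −0.35 and −0.36 from 30 to 43 Mb (32 genes). The 4 windows from 10 to 50 Mb on the near side had DMSO medians between −0.03 and 0.08. These windows beyond MAPKAPK2 hold 56 members, whose differences chose them, so the step is shown for unlisted genes separately below.

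**Figure D3:**
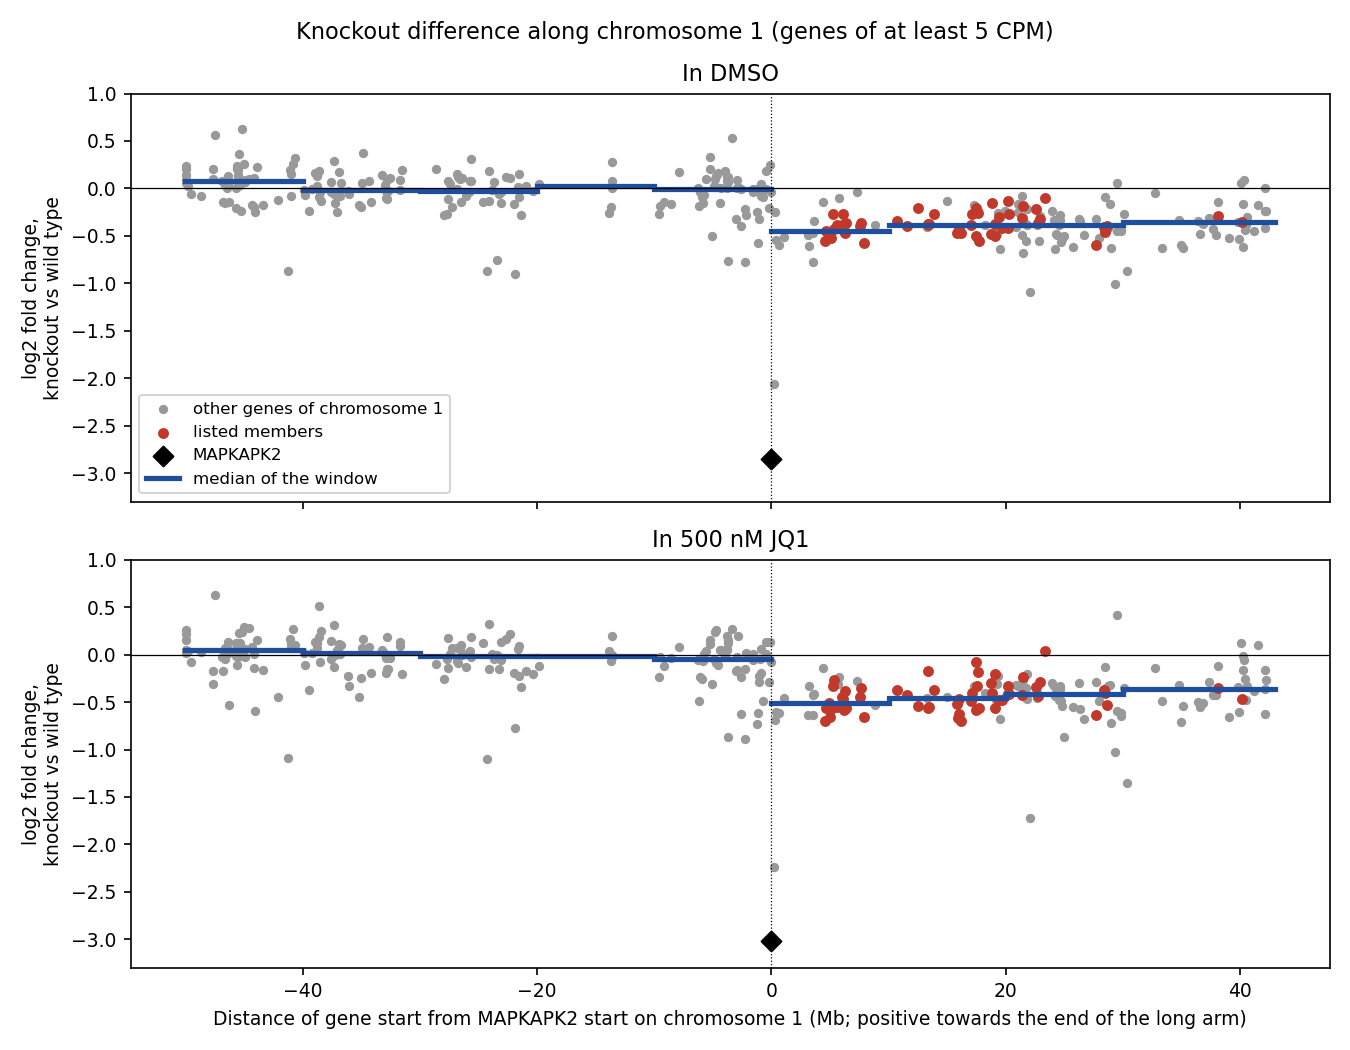
Log2 fold change of knockout against wild type (y axis) of chromosome 1 genes of at least 5 CPM by the distance of their start from that of MAPKAPK2 (x axis, Mb), in DMSO (top) and JQ1 (bottom). Listed members, other genes and MAPKAPK2 are marked separately, and the window medians (lines) lie near 0 before MAPKAPK2 and between −0.35 and −0.51 beyond it.

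Within the members, those nearer MAPKAPK2 differed slightly more. The 19 members from 2.93 to 10.7 Mb had medians of −0.45 in DMSO and −0.51 in JQ1. The next 20, up to 18.8 Mb, had −0.39 and −0.48, and the last 19, up to 40.2 Mb, had −0.36 and −0.42. The correlation of the difference with distance across the 58 members was 0.34 in DMSO and 0.32 in JQ1 (rank correlation 0.36 and 0.37), as a description. Neighbours could nonetheless differ: CNIH4 and WDR26, whose starts are 0.0283 Mb apart, had average differences of −0.22 and −0.56, and SRP9 and EPHX1, 0.0323 Mb apart, −0.29 and −0.53.

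Genes beyond MAPKAPK2 that were left off the list also had negative medians, with a wider spread than the members. Of the 241, 82 were called lower in DMSO and 87 in JQ1, at medians of −0.39 and −0.33, and 23 and 50 had a positive value. The members and these genes were not tested against each other, since the members were chosen by this difference. Of the 96 with at least 5 CPM, 68 and 71 were called lower, at medians of −0.39 and −0.42, beside 45 and 50 of the 56 members at that level. On the near side, 23 of 272 genes in an equal span were called lower in DMSO (8.46%, against 4.44% of all tested genes). In JQ1 24 of them were (8.82%, against 5.56%), and the medians were −0.04 and −0.03. The called gene closest to MAPKAPK2 on that side was EIF2D, a translation factor 0.114 Mb before it, which was higher in knockout DMSO libraries at 0.25 (edgeR adjusted p = 0.0174). DYRK3, a kinase gene 0.0494 Mb before MAPKAPK2, was at −0.04 in DMSO. IKBKE, 0.214 Mb before MAPKAPK2, was at −0.20 in DMSO and −0.29 in JQ1 and was called in neither. PFKFB2, 0.349 Mb beyond MAPKAPK2, was at −0.25 in DMSO, where it was not called, and at −0.69 in JQ1, where it was. The deubiquitinase gene YOD1, 0.359 Mb beyond MAPKAPK2, was lower at −0.54 in DMSO (edgeR adjusted p = 0.000849) and at −0.60 in JQ1.

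Some unlisted genes beyond MAPKAPK2 fell further than the members other than LAMB3. IL24, a cytokine gene 0.212 Mb from MAPKAPK2, was read at 462, 456 and 491 CPM in wild-type DMSO and 119, 103 and 118 CPM in knockout DMSO libraries. Its log2 fold changes were −2.06 (edgeR adjusted p = 2.6e-10) and −2.24 in JQ1. RHOU, which encodes a small GTPase, was at −1.09 and −1.73, the calcium channel gene RYR2 at −0.87 and −1.35, and the potassium channel gene KCNK1 at −1.14 and −1.01.

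A few unlisted genes escaped. ERO1B, an oxidase that forms disulfides in the endoplasmic reticulum, was at 97.6, 96.2 and 97.9 CPM in wild-type DMSO and 103, 98.6 and 101 CPM in knockout DMSO libraries. In JQ1 it was at 148, 156 and 158 CPM in wild type and 217, 212 and 186 CPM in knockout, so every knockout JQ1 library was above every wild-type one. Its log2 fold change was 0.05 in DMSO and 0.41 in JQ1 (edgeR adjusted p = 0.0004), the single call of a higher level among the 299 genes beyond MAPKAPK2. SCCPDH was at 0.06 and 0.13, and neither passed the test. ZNF670 (0.09 and −0.06), its read-through transcript ZNF670-ZNF695 (−0.17 and −0.01) and the olfactory receptor gene OR2M3 (−0.18 and 0.10) were also near 0, though reads of these may be split with near-identical or overlapping genes. SCCPDH, ZNF670-ZNF695, ZNF670 and OR2M3 start at 246724047, 246945547, 247036784 and 248197265 on chromosome 1, near the end of the arm. ZNF670-ZNF695, ZNF670 and OR2M3 lie beyond AHCTF1, the last member. CNST, which starts at 246566444, was at −0.53 and −0.60. Of 98 unlisted genes with at least 5 CPM in wild type, 93 were at a negative value in both treatments.

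The response to JQ1 was not used to choose the members, though it shares libraries with the genotype comparisons. In wild-type cells 18 members rose and 10 fell with JQ1 by edgeR's test, where 16.9% of all genes rose and 16.2% fell. In knockout cells 16 rose and 15 fell, where 16.7% and 17.8% of all genes did. The members' shares were 31.0% and 17.2% in wild type and 27.6% and 25.9% in knockout. Of all tested genes of at least 5 CPM, 28.3% rose and 18.1% fell in wild type, and 27.3% and 21.9% in knockout. At that level, which 56 members reached, the shares are near the background and are not a result about the members. The medians were −0.01 in wild type and −0.08 in knockout. This split depends on the scaling: with library totals only, which moved the median of all genes by −0.16 and −0.12, 11 members rose and 20 fell in wild type and 7 rose and 25 fell in knockout. The standard deviation of the JQ1 response over members was 0.325 in wild type and 0.342 in knockout, against 0.658 and 0.708 over all tested genes. For the 56 members of at least 5 CPM it was 0.316 and 0.339, against 0.437 and 0.477 over all tested genes at that level. The members' smaller spread in the genotype comparisons is not set against these values as a result, since the members were selected on that difference. Across the 58 members the responses of the genotypes, which share no library, had an r of 0.94 and a rank correlation of 0.93. Of 21 members called in both genotypes, 13 rose and 8 fell in both.

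EPHX1, the microsomal epoxide hydrolase of xenobiotic metabolism, rose most in wild type. Its levels went from 21.0, 20.9 and 20.3 CPM in DMSO to 36.5, 36.3 and 32.8 CPM in JQ1, a log2 fold change of 0.76 (edgeR adjusted p = 7.49e-06). In knockout cells it went from 13.4, 15.5 and 15.03 to 23.3, 21.8 and 26.6 CPM, a change of 0.71 (adjusted p = 1.87e-05 by edgeR). The knockout libraries in JQ1 were thus at about the level of wild-type libraries in DMSO. GALNT2 rose by 0.59 in wild type and by 0.73 in knockout, where it led the members. INTS7 and GGPS1, the geranylgeranyl diphosphate synthase, rose by 0.61 and 0.59 in wild type, and PSEN2 by 0.57 in knockout.

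TATDN3 fell most in both genotypes. It went from 21.1, 26.0 and 24.7 CPM to 12.6, 13.8 and 13.4 CPM in wild type, a change of −0.85 (edgeR adjusted p = 1.43e-05). In knockout cells it went from 20.4, 19.3 and 19.7 to 10.4, 10.2 and 8.23 CPM, a change of −1.05 (edgeR adjusted p = 2.39e-06). TRAF5 fell by 0.61 in wild type and by 0.72 in knockout, and TAF1A fell by 0.35 in wild type. LAMB3 fell by 0.52 in knockout (edgeR adjusted p = 0.0260). In wild type it was at −0.39, which did not pass the test (edgeR adjusted p = 0.0535).

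**Figure D4:**
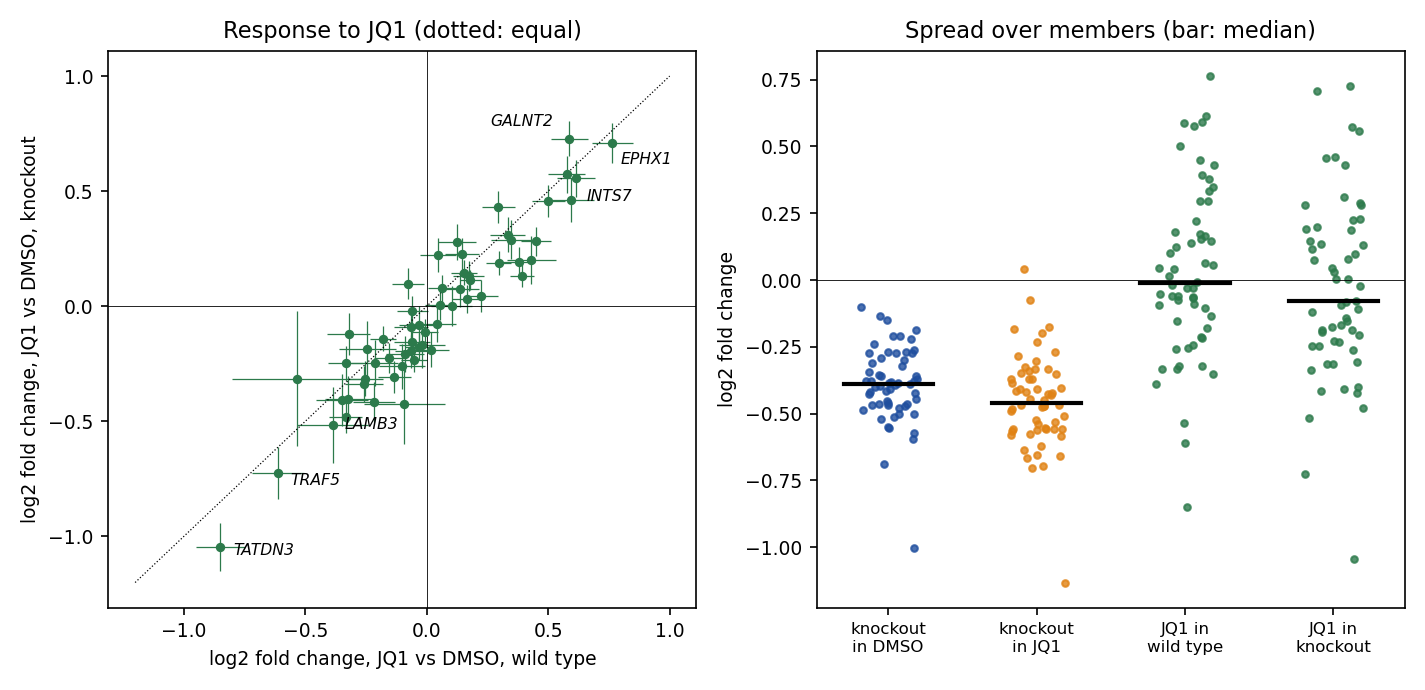
Left, log2 fold change with JQ1 in wild type (x axis) and in knockout (y axis) of the 58 tested members, with standard errors as bars. Right, the same members' genotype and JQ1 log2 fold changes (y axis), where the genotype differences cluster at medians of −0.39 and −0.46 and the JQ1 responses scatter on both sides of 0.

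Some members start next to each other on opposite strands. INTS7 and DTL start 11 bases apart and had genotype differences of −0.27 and −0.43 in DMSO, while with JQ1 in wild type they were at 0.61 and 0.13. NSL1 and TATDN3 start 46 bases apart and had genotype differences of −0.38 and −0.27 in DMSO, while with JQ1 in wild type they were at 0.14 and −0.85. Differences within these pairs were not tested. AIDA and BROX, and ARID4B and GGPS1, also start head to head but overlap by 658 and 870 bases. Whether the counting used the strand is not given in the sources used here, so reads of these 4 genes may be mixed.

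No member's genotype difference was shown to depend on JQ1. The interaction of genotype and drug called 0 of the 58 members by edgeR, where 0.134% of all genes were called, and DESeq2 called 1. By edgeR 2 members had an unadjusted p below 0.05, and the smallest adjusted p was 0.249, for ENAH, whose difference changed by −0.26 between DMSO and JQ1. LYPLAL1 had the widest gap between the treatments (−0.33, SE 0.211) and DISP1 came after ENAH (−0.23). Of the 58 differences, 45 were more negative in JQ1, as were 11091 of all 21698 tested genes and 6453 of the 11251 of at least 5 CPM. Without knockout JQ1 replicate 3 the member median in JQ1 was −0.40, beside −0.39 in DMSO.

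Genes encoded elsewhere whose proteins work with members were read beside them. From a list of 72 partners of 17 members, 71 were tested, with medians of 0.03 in DMSO and 0.00 in JQ1. In DMSO 1 was called lower (1.41%, against 4.44% of all tested genes) and 3 higher (4.23%, against 3.47%). In JQ1 2 were called lower (2.82%, against 5.56%) and 4 higher (5.63%, against 3.01%), and the JQ1 total fell to 2 under other settings. With library totals only, 2 were lower and 2 higher in each treatment. These shares are near the background and are not a result about the partners. The 9 Integrator subunits listed beside INTS7 had a median of 0.06 in DMSO, the 8 nuclear pore genes beside NUP133 and AHCTF1 −0.02, and the 6 mitochondrial import genes beside TOMM20 0.06. None of those 23 genes was called in DMSO.

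The partner with the largest difference in either treatment was CUL4B, the X-linked cullin of the ligases that use DTL. It was at 115, 112 and 110 CPM in wild-type DMSO and 17.8, 17.5 and 17.7 CPM in knockout DMSO libraries. In JQ1 it was at 98.8, 101 and 104 CPM in wild type and 12.2, 13.0 and 9.18 CPM in knockout. The genotypes were far apart, with log2 fold changes of −2.67 (edgeR adjusted p = 1.85e-10) and −3.15 (edgeR adjusted p = 3.29e-11). MIS12, the kinetochore partner of NSL1, was higher in knockout at 0.38 in DMSO and 0.59 in JQ1. SRP68, the partner of SRP9, was higher at 0.31 and the RCOR3 partner KDM1A at 0.17, both in DMSO. In JQ1 the mitochondrial import gene TOMM7 was higher at 0.24 and PPP2R1B, a scaffold subunit of protein phosphatase 2A, at 0.29, while MKLN1, a CTLH subunit beside WDR26, was lower at −0.32.

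**Figure D5:**
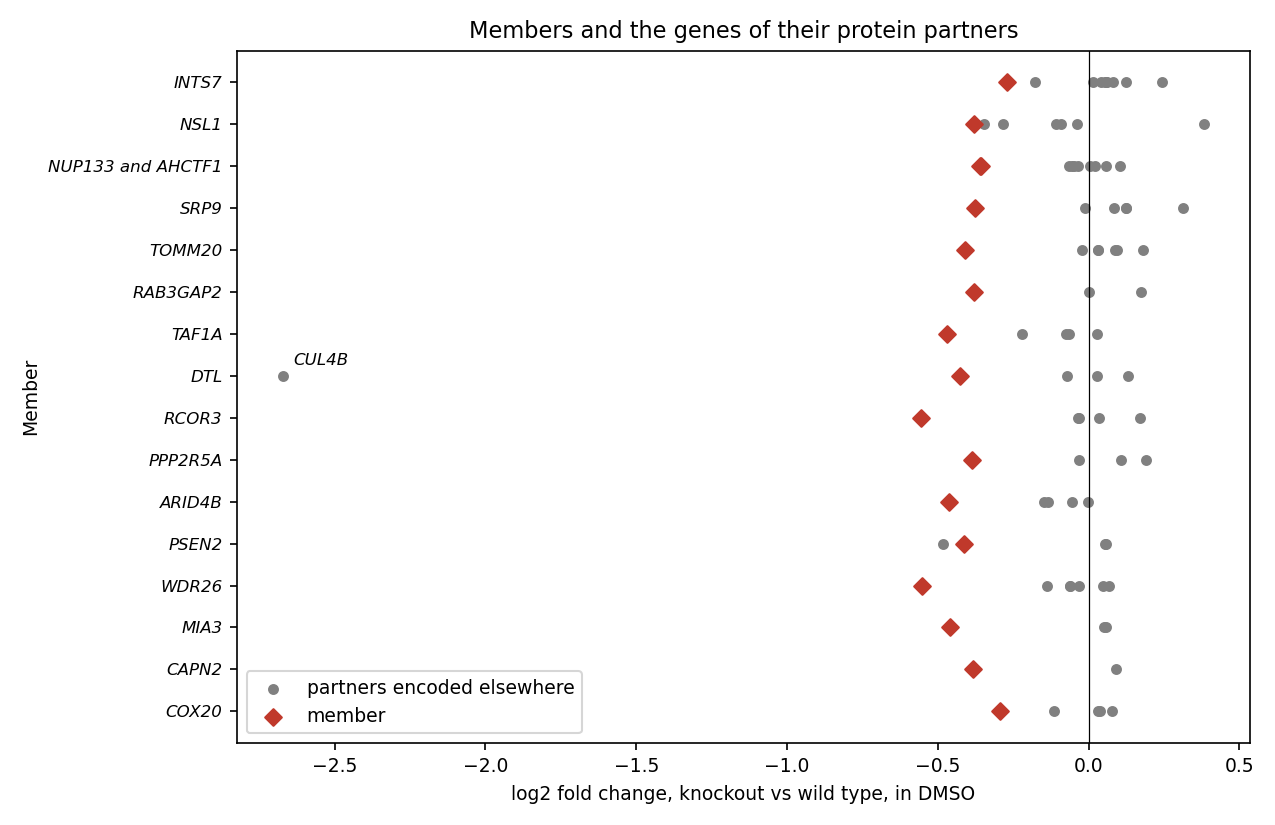
Log2 fold change of knockout against wild type in DMSO (x axis) of members (diamonds) and of the tested genes of their protein partners (grey points), in rows by member (y axis). Members lie between −0.27 and −0.55 and most partners around 0, with CUL4B at −2.67.

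Beside the division genes CENPF, NEK2 and DTL, 23 general proliferation genes from other places in the genome were read, and their part in the member values was not tested. In DMSO 1 was called lower, RRM2 at −0.20 (4.35%, against 4.44% of all tested genes). None was called higher (against 3.47%), and the median was −0.03. Counts in DMSO were 0 at an adjusted p of 0.01 and 6 without knockout JQ1 replicate 3. In JQ1 MKI67 (−0.25) and TPX2 (−0.17) were called lower (8.70%, against 5.56%), with a median of 0.04. TYMS (0.21) was called higher (4.35%, against 3.01%). These shares of calls are near the background and are not a result about the proliferation genes. In DMSO all 3 knockout libraries lay below all 3 wild-type ones for 8 of the 23 (34.8%, against 14.7% of tested genes). In JQ1 this was so for 7 (30.4%, against 12.4%). The fitted difference was positive for 9 of the 23 in DMSO and 13 in JQ1. The summed level of the 23 genes was 3468 ± 11.3 CPM in wild-type and 3296 ± 77.1 CPM in knockout DMSO libraries, and 3214 ± 32.1 and 3084 ± 93.3 CPM in JQ1 (SD, n = 3).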

How the data were processed

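RNA-seq was read in 12 libraries of A375 cells (3 for each genotype and treatment). The authors deposited estimated counts per gene symbol. Per the submitters' processing notes the tools were Trim Galore, cutadapt, FastQC, MultiQC, kallisto and DESeq2, with build GRCh38.p10 and no versions. The authors also deposited a normalized signal, used here only in 1 alternative. Positions came from GENCODE release 29 by symbol (GRCh38; 54811 symbols matched directly and 30 by an older name or ID).

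Estimated counts were rounded to whole numbers, a change from the planned test of raw counts. Genes were kept by edgeR's filterByExpr, scaled by TMM and fitted in 1 model over all 12 libraries and 4 groups with edgeR 4.0.16 (limma 3.58.1, R 4.3.3), quasi-likelihood, prior count 0.125. Adjusted p-values are Benjamini-Hochberg over 21698 genes, at a threshold of 0.05. CPM are per 1000000 of the scaled library. Standard errors were derived from each log2 fold change and its F statistic, as |log2 fold change|/√F. The fit was tested on simulated data.

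The members and lists were chosen with earlier results of these data known. Fully described are the 3 members with the largest and the 3 with the smallest average difference, the 3 with the widest gap between treatments, and up to 3 per direction and JQ1 contrast. Unlisted genes are the 5 most positive and 5 most negative beyond MAPKAPK2, with MAPKAPK2 and up to 3 called partner or proliferation genes per direction. One of these genes is not reported here. Examples within role groups, and genes beside MAPKAPK2, were chosen after their values were seen. Same-numbered replicates were checked for pairing: 4 of 18 pairs of libraries correlated over 0.1. Alternatives were DESeq2 1.42.0, other scalings, filters, thresholds and fits, limma on log2 of the deposited signal plus 1, and each library left out.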

Additional observations from a re-analysis of the deposited data

How the results depend on the processing

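Under 20 alternatives all 58 members stayed negative in DMSO. In JQ1 57 kept their sign, and the exception, GALNT2, turned to -0.0064 without wild-type JQ1 replicate 3 and to -0.0675 without knockout JQ1 replicate 3 (range with 1 library left out -0.0675 to 0.0934). Of the members called lower, 31 of 46 in DMSO and 38 of 51 in JQ1 were called under every alternative. With 1 library left out, members called lower numbered 32 to 53 (DMSO) and 43 to 50 (JQ1), with medians of -0.41 to -0.35 and -0.48 to -0.40. Scaling by library totals only gave a DMSO median of -0.43 and moved the median of all genes by -0.05 there, by -0.16 for JQ1 in wild type and by -0.12 for JQ1 in knockout. Members called with JQ1 in knockout numbered 18 at an adjusted p of 0.01 and 19 with only the groups compared, and DESeq2 called 1 in the interaction. Partner genes called in DMSO were 7 with only the groups compared and 2 to 6 with 1 library left out. In JQ1 they were 2 at 0.01 and with only the groups compared, 3 with limma and 2 to 7 with 1 library left out. Proliferation genes called in DMSO were 0 at 0.01 and with no low-count filter, 7 with only the groups compared, 3 with DESeq2 and 0 to 6 with 1 library left out. In JQ1 they were 0 at 0.01 and with only the groups compared, 5 with DESeq2 and 0 to 2 with 1 library left out. In JQ1 ZNF670-ZNF695 turned positive without wild-type JQ1 replicate 1 or 2 or knockout JQ1 replicate 3 (-0.0992 to 0.118 with 1 library left out), and ZNF670 without the last of these (-0.198 to 0.0974). The replicate numbers gave no clear pairing: 4 of 12 libraries correlated best with their own number, and same-numbered pairs had an r of -0.39 to 0.37. With 3 libraries per group this check cannot exclude pairing. A replicate block gave 46 and 49 members called lower, and 3 partner genes in JQ1. Scaling without chromosome 1, chosen after seeing the data, gave 45 and 49. The causes of these changes were not tested. Low counts kept TGFB2 out of the tests.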
